A study of Mus musculus with 16 samples.

Results

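The transcripts of the mouse egg coat and of the protease that remodels it were followed in 16 oocyte RNA-seq libraries. The 5 genes were Zp1, Zp2 and Zp3, which encode the zona pellucida glycoproteins, Astl, which encodes the protease ovastacin, and Fetub, which encodes its inhibitor fetuin-B. They were found by gene name among 28618 entries of the expression table, each name had 1 entry, and all 5 passed the filter on low values in every comparison. The libraries fell into 4 groups of 4: wildtype (WT) oocytes at the germinal vesicle (GV) stage, Psma7 cKO oocytes at the same stage, and metaphase II (MII) oocytes, called eggs here, of each genotype. The cKO genotype was Zp3-Cre; Psma7 flox/flox, a deletion of the proteasome subunit gene Psma7 that begins in growing oocytes, where the Zp3 promoter is active. The labels call the controls wildtype and do not say whether they carried floxed alleles or Cre. All females were 3 to 4 weeks old and had received 5 IU of PMSG, a gonadotropin that stimulates follicle growth. GV oocytes were taken 44 h later. Eggs were collected from oviducts 14 to 16 h after a further injection of hCG, which triggers ovulation, and were freed of cumulus cells with 0.3% hyaluronidase. Per the labels each library was made from 5 oocytes (the study's methods give another pool size), and the labels number the 4 as biological replicates without saying which animals they came from, so the tests measure the spread between these libraries.

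The zona pellucida is the extracellular coat of the oocyte, a mesh of glycoprotein filaments that the mouse oocyte secretes while it grows. ZP2 carries the region of the coat that sperm recognise, ZP3 pairs with the other subunits to build the filaments, and ZP1 crosslinks them. Ovastacin waits in cortical granules, vesicles under the egg membrane, and is released at fertilization to cleave ZP2, after which further sperm no longer bind. Fetuin-B, a cystatin family protein best known as a plasma protein made by the liver, blocks ovastacin that leaks out early and so keeps the coat from hardening before fertilization. The zona mRNAs are made in growing oocytes, under transcription factors that include FIGLA, and belong to the large pool of maternal mRNA that is removed once meiosis resumes.

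The upstream sequences below show the promoter elements of the transcripts that the results turn on, and the first of them is also the kind of promoter that drives the Cre of the cKO line. They were read from RefSeq windows on GRCm38.p6, which held 3 of the 5 genes. Zp1 and Zp2 were not in those windows and are named only. Each run is the 250 bases before a transcription start, on the plus strand, 5′ to 3′. Capitals mark CAGGTG (searched on both strands) and CACGTG, which are both forms of the E-box CANNTG that factors such as FIGLA recognise, and TATAA (searched on the sense strand only), the core of a TATA box.
Zp3, chr5:135979855-135980104: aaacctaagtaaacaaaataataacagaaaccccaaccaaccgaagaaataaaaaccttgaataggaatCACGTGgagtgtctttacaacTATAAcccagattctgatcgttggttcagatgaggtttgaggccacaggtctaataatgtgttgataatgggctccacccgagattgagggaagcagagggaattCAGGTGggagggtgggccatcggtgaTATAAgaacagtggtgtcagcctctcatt
Astl, chr2:127341386-127341635: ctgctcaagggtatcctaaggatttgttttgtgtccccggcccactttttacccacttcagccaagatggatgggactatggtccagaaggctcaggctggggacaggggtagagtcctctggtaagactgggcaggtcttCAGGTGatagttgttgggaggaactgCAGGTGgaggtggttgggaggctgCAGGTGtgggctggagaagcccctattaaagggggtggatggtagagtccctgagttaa
Fetub, chr16:22918132-22918381: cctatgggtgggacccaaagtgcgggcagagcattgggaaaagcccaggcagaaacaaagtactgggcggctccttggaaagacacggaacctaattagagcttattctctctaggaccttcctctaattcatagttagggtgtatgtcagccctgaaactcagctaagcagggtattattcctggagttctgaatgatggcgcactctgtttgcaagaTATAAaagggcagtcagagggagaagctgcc
In the Zp3 window a TATAA began 29 bases before the start and a CAGGTG began 55 bases before it, with a further TATAA at 160 and the CACGTG at 181 bases. The Astl window, which belongs to the inner of 2 annotated starts, held 3 CAGGTG, which began 109, 83 and 59 bases before the start, and the outer window held none. At least 1 CAGGTG was present in 17.2% of all 32851 windows of this length and 3 or more in 0.247%. CACGTG was present in 6.02% of windows and the general form CANNTG in 66.2%, so an E-box as such was common. TATAA was present in 16.0% of windows, and the outer Fetub window had it 31 bases before the start. Neither Fetub window held CAGGTG. A match describes letters only, and binding was not measured.

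All 5 genes are placed on GRCm38 by GENCODE M21, and no other annotated gene overlapped any of them. Zp1 lies at chr19:10914287-10920632 on the minus strand, Zp2 at chr7:120126772-120145291 on the minus strand, Zp3 at chr5:135980099-135988624 on the plus strand, Astl at chr2:127338639-127357651 on the plus strand and Fetub at chr16:22918334-22939778 on the plus strand. The main coding transcripts of the zona genes shared very short 3′ untranslated regions. That of Zp3-201, an mRNA of 1323 nt in 8 exons, was annotated as 13 nt, against a median of 933 nt over 8861 genes expressed in these libraries, of which 0.982% had a shorter one. The corresponding lengths were 34 nt in Zp1 (1.66% shorter) and 49 nt in Zp2 (2.46% shorter). Fetub had 122 nt (7.63% shorter) and Astl 877 nt, near the middle of the distribution (47.8% shorter). The polyadenylation signal AATAAA was found in the last 100 nt of all 5 transcripts and of 66.3% of the expressed genes. In Zp3 it began 18 nt from the mRNA end, so that it overlapped the coding region's end. The letters TTTTAT or TTTTAAT, forms of the cytoplasmic polyadenylation element, were in the last 100 nt of none of the 5 and of 20.0% of the expressed genes.

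Expression is given as FPKM, the fragments of a transcript scaled to its length in kilobases and to the library's mapped fragments, which is a share of a library and, being per length, can be compared between genes. Summed FPKM was 392306 to 421173 per library, 9044 to 11299 entries reached 1 FPKM, and the depth estimated from the steps between low values was 10.6 to 15.7 M fragments. At that depth the lowest Fetub value rested on about 142 fragments and the lowest value of any other member, Zp1 in a WT egg library, on about 2573. At the GV stage Psma7 itself stood at 165 ± 25.3 FPKM in WT against 14.6 ± 2.82 in cKO, and in eggs at 126 ± 32.1 against 39.7 ± 20.2 FPKM (SD, n = 4 each), with no overlap between genotypes. The cKO eggs were uneven in this, with 13.6, 50.3, 35.0 and 59.9 FPKM in replicates 1 to 4. All 12 oocyte markers were at 1 FPKM or above in every group. Of 14 granulosa and cumulus markers 3 reached 1 FPKM, and their list summed to 15.8 to 23.3 FPKM. The 3 were Cyp19a1 (group means of 8.10 to 13.7 FPKM), Kitl (3.86 to 6.11 FPKM) and Nr5a2 (2.38 to 3.64 FPKM). The rest of the list, with Fshr, Amh, Inha and Foxl2, had group means of at most 0.63 FPKM. The 8 liver markers in the table, listed because the liver is the main source of fetuin-B, summed to at most 0.673 FPKM.

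In GV oocytes the egg coat was among the most abundant messages. Zp3 stood at 3949, 4016, 4054 and 3887 FPKM in the WT libraries and at 4436, 4020, 4104 and 4025 FPKM in the cKO libraries. It ranked 2 or 3 among all entries in each of these 8 libraries and took 0.962% to 1.08% of the summed FPKM. Zp2 measured 2285, 2321, 2549 and 2451 FPKM in WT and 2339, 2333, 2512 and 2434 FPKM in cKO GV oocytes, ranks 7 to 10. Zp1 measured 1337, 1329, 1185 and 1236 FPKM in WT and 1370, 1163, 1269 and 1173 FPKM in cKO GV oocytes, ranks 25 to 44. The WT and cKO values of each zona transcript overlapped. Astl was lower, at 427, 394, 308 and 419 FPKM in WT and 376, 411, 496 and 456 FPKM in cKO GV oocytes, ranks 98 to 195. Fetub was lowest, at 18.5, 21.2, 21.4 and 25.7 FPKM in WT and 24.1, 21.0, 22.8 and 29.2 FPKM in cKO GV oocytes, far down the list at ranks 2469 to 3374. The inhibitor's transcript was thus present in oocyte libraries in which the liver markers were near 0, at about 0.057 of the Astl level in WT and 0.056 in cKO GV oocytes.

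**Figure D1:**
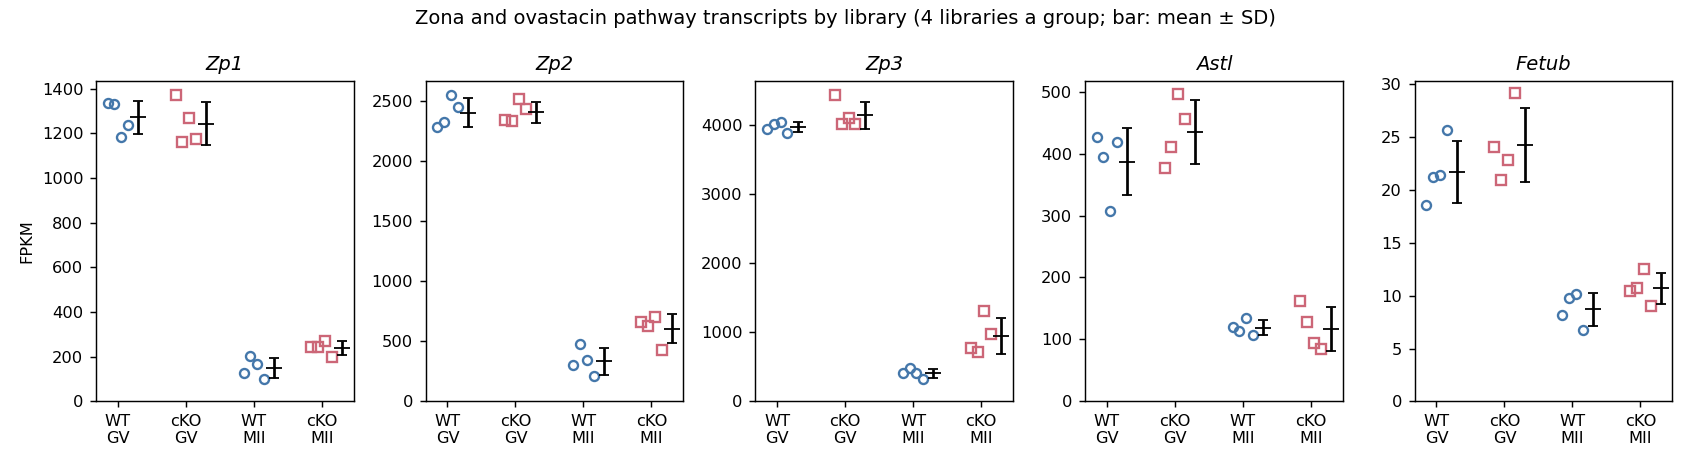
FPKM (vertical axis, linear from 0, one scale per gene) of the 5 transcripts in each library, by group. Circles are WT and squares Psma7 cKO libraries, and the bar is the mean ± SD of 4. In GV oocytes the genotypes overlap for every gene, all MII values lie below all GV values, and among eggs only the Zp3 values of the 2 genotypes are separate.

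The order Zp3, Zp2, Zp1, Astl, Fetub held in 15 of the 16 libraries. The exception was replicate 4 of the WT eggs, where Astl (107 FPKM) lay above Zp1 (99.0 FPKM). Neighbours in this order overlapped in WT eggs, where Zp1 ranged from 99.0 to 202 and Astl from 107 to 135 FPKM. Zp2 and Zp3 also overlapped across WT egg libraries (212 to 481 and 321 to 487 FPKM), although Zp3 was higher within each library. In the other 3 groups no neighbours overlapped.

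The first question was whether loss of Psma7 altered these transcripts before maturation. None of the 5 was called between cKO and WT GV oocytes by limma at a Benjamini-Hochberg adjusted p under 0.05, a threshold that 0.118% of the 11062 transcripts tested passed. The log2 difference was 0.059 for Zp3, with a 95% confidence interval of -0.13 to 0.25. It was 0.0026 for Zp2 (-0.18 to 0.19) and -0.034 for Zp1 (-0.23 to 0.17). For the zona transcripts these intervals, which belong to this fit, leave room for differences of at most 1.19-fold. Other settings gave wider ones. The SE of Zp3 was 0.085 here and 0.18 without the filter on low values. That of Zp2 was 0.084 here and 0.19 with all 16 libraries in one fit. Astl differed by 0.17 (-0.10 to 0.45) and Fetub by 0.16 (-0.13 to 0.45), which allows up to 1.36-fold for each. The adjusted p-values of the 5 in limma ran from 0.673 (Astl) to 0.995 (Zp2). Of all transcripts, 1182 had an unadjusted p under 0.05, and 13 were called, 11 of them higher in cKO (4 higher and 2 lower when libraries were rescaled to a common median ratio). That number was 6 without WT GV replicate 2 or 4 and 5 without cKO GV replicate 1 or 4.

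The next comparison asked how far the transcripts fell on maturation from GV oocyte to egg. In WT eggs Zp3 was down to 407, 487, 411 and 321 FPKM, Zp2 to 299, 481, 345 and 212 FPKM and Zp1 to 126, 202, 166 and 99.0 FPKM. Every one of these values lay below every GV value. Replicate 2 was the highest of the WT egg libraries for all 3 zona transcripts. Replicate 4 was the lowest of them for all 5 transcripts, and it also had the fewest entries at 1 FPKM or above (9044). Astl measured 120, 113, 135 and 107 FPKM and Fetub 8.16, 9.77, 10.2 and 6.73 FPKM in WT eggs, again without overlap with GV oocytes. All 5 fell by limma, as did 52.4% of the 10475 transcripts tested, and 48.7% were lower without overlap, so a fall as such was common. Their sizes differed. The log2 change was -3.31 for Zp3 (95% CI -3.56 to -3.05, adjusted p = 1.71e-09), -3.15 for Zp1 (-3.56 to -2.74) and -2.91 for Zp2 (-3.34 to -2.47), whereas it was -1.70 for Astl (-1.95 to -1.44) and -1.33 for Fetub (-1.66 to -1.0). The intervals of the zona transcripts were separate from those of Astl and Fetub. The difference between genes was not itself tested. In the distribution of all transcripts, whose median change was -0.44, 3.86% fell further than Zp3, 4.65% further than Zp1 and 6.42% further than Zp2, against 19.8% for Astl and 27.0% for Fetub.

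Expressed as the level left, WT eggs kept 10.2% ± 1.71 of the GV mean of Zp3, 11.6% ± 3.54 of Zp1 and 13.9% ± 4.67 of Zp2 (SD, n = 4 egg libraries). They kept 30.7% ± 3.08 of Astl and 40.1% ± 7.27 of Fetub. The median transcript kept 64.8% ± 1.52. The share of the protease relative to its substrate therefore shifted within the transcript pool. Astl was 0.162 ± 0.029 of the Zp2 level in WT GV oocytes and 0.383 ± 0.111 in WT eggs, with library values of 0.187, 0.170, 0.121 and 0.171 before and 0.403, 0.235, 0.390 and 0.504 after maturation, which did not overlap. Fetub relative to Astl was 0.057 ± 0.011 in WT GV oocytes and 0.073 ± 0.010 in WT eggs, with overlapping libraries. These ratios are descriptions and carry no test. FPKM is a share of a changing pool. Libraries rescaled to a common median ratio moved the median of all transcripts by 0.48 on the log2 scale in WT and by 0.40 in cKO, and the split of calls from 33.3% to 50.3% higher in WT and from 31.1% to 48.5% in cKO. All 5 members stayed called lower on that scale, from -2.84 for Zp3 to -0.86 for Fetub in WT. With oligo-dT capture a shorter poly(A) tail and less RNA cannot be told apart, and in pooled oocytes neither can less of a transcript in each oocyte and fewer oocytes that hold it.

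**Figure D2:**
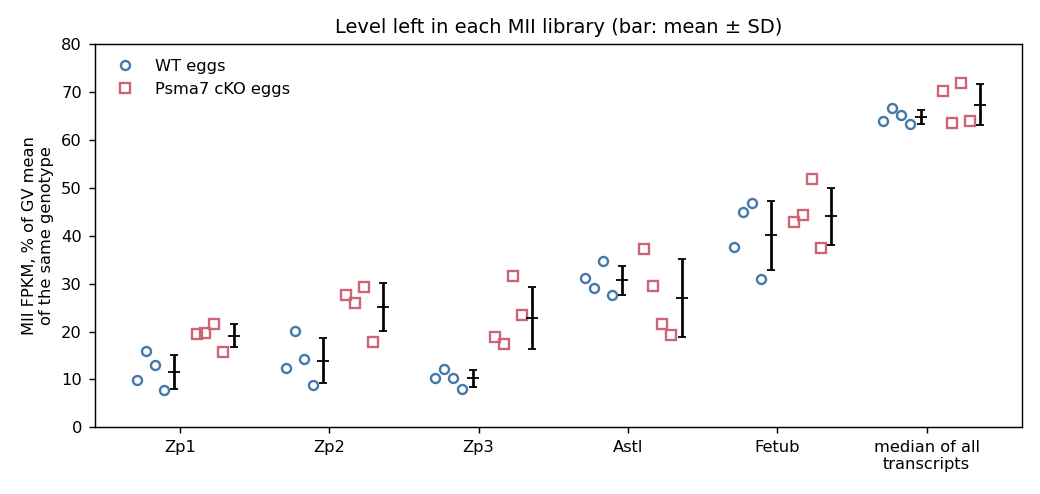
FPKM of each MII library as a percentage of the GV mean of the same genotype (vertical axis) for the 5 transcripts and for the median over all transcripts. Circles are WT and squares Psma7 cKO egg libraries, and the bar is the mean ± SD of 4. WT eggs kept 10.2% of Zp3 and cKO eggs 22.9%, while the median transcript was at 64.8% and 67.4%.

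All 5 transcripts also fell between cKO GV oocytes and cKO eggs, where 51% of 10748 transcripts tested were called lower and 47.2% were lower without overlap. No egg value overlapped a GV value of the same gene. The log2 change was -2.39 for Zp1 (95% CI -2.64 to -2.14), -2.17 for Zp3 (-2.56 to -1.78) and -2.02 for Zp2 (-2.35 to -1.68). It was -1.93 for Astl (-2.38 to -1.49) and -1.18 for Fetub (-1.49 to -0.87). Here the intervals of all 3 zona transcripts overlapped that of Astl, unlike in WT. The cKO eggs kept 22.9% ± 6.43 of Zp3, 25.1% ± 5.10 of Zp2 and 19.2% ± 2.43 of Zp1. They kept 26.9% ± 8.14 of Astl, 44.1% ± 5.91 of Fetub and 67.4% ± 4.32 of the median transcript.

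Eggs of the 2 genotypes were then compared directly. In cKO eggs Zp3 measured 781, 722, 1314 and 974 FPKM, all above the highest WT egg (487 FPKM). The means were 948 ± 267 and 406 ± 67.8 FPKM (SD, n = 4), and the log2 difference was 1.20 (SE 0.19, 95% CI 0.76 to 1.63), a 2.29-fold higher level. It passed the limma test (adjusted p = 0.0203), where 6.53% of the 9492 transcripts tested were called higher and 13.6% were higher without overlap. Zp3 lay far out in this distribution, with a larger difference in 281 of the other transcripts. The paper reports that most transcripts higher in cKO eggs, at its own fold-change threshold, are maternal mRNAs that normally decay in maturation. The Zp3 difference found here was smaller than that threshold. The paper describes the rise of its transcripts as slight and without statistical significance. It concludes that maternal mRNA decay continues at reduced efficiency and that the deletion has limited impact on it. Zp2 measured 663, 625, 702 and 427 FPKM in cKO eggs, and 3 of the 4 lay above all WT eggs. Its means were 604 ± 123 and 334 ± 112 FPKM, a log2 difference of 0.89 (0.34 to 1.44) that missed the threshold (adjusted p = 0.0551 in limma). Zp1 measured 243, 244, 270 and 197 FPKM in cKO eggs, again with 3 of 4 above all WT eggs. Its means were 238 ± 30.3 and 148 ± 45.1 FPKM, a log2 difference of 0.73 (0.27 to 1.19) that also missed it (adjusted p = 0.0577 in limma). For the transcripts of the protease and its inhibitor the genotypes overlapped. These libraries do not measure protein, and the paper reports more fetuin-B and less ovastacin protein after loss of Psma7. Astl measured 162, 128, 93.9 and 84.3 FPKM in cKO eggs, which spanned the whole WT range, and its log2 difference was -0.062 (-0.49 to 0.37, adjusted p = 0.858 in limma). Fetub measured 10.4, 10.7, 12.6 and 9.08 FPKM in cKO eggs, 3 of them above all WT eggs, with a log2 difference of 0.31 (-0.043 to 0.66, adjusted p = 0.220 in limma).

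The Zp3 call rested on a narrow margin. It was lost without WT egg replicate 1 (adjusted p = 0.0701), replicate 3 (0.0576) or replicate 4 (0.0570), all by limma, although the log2 difference stayed between 1.03 and 1.31 whichever egg library was left out, and it was lost without the filter on low values (0.0750). The number of transcripts called between eggs moved far more than that, from 761 to 12, 114, 3 and 39 without WT egg replicates 1 to 4 and to 197, 1160, 317 and 418 without cKO egg replicates 1 to 4. Rescaling lowered all egg differences by about 0.12 and changed the split of calls from 81.5% to 60.1% higher, with Zp3 at 1.08 (adjusted p = 0.0151 in limma). Beside these differences, cKO eggs had more entries at 1 FPKM or above than WT eggs (mean 9648 against 9189.5, two-sided exact permutation p = 0.0286, the smallest that 4 against 4 can give), with no overlap. The same held in GV oocytes (mean 11188 against 10929.8, exact permutation p = 0.0286), where no zona transcript was called. The part of this difference in the zona values was not tested.

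**Figure D3:**
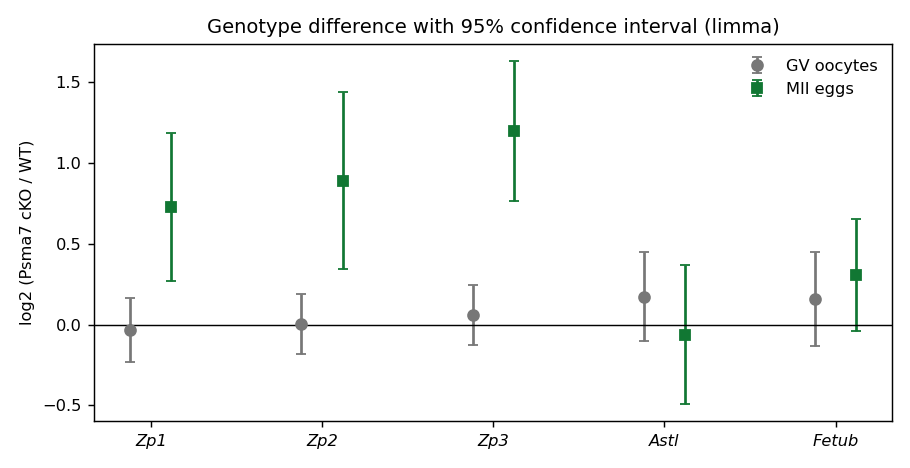
The log2 difference of Psma7 cKO against WT (vertical axis) for each transcript, in GV oocytes (circles) and in MII eggs (squares), with 95% confidence intervals from limma (n = 4 against 4). In GV oocytes all 5 intervals include 0. In eggs those of Zp1, Zp2 and Zp3 lie above 0, with adjusted p-values of 0.0577, 0.0551 and 0.0203, and those of Astl and Fetub include it.

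**Figure D4:**
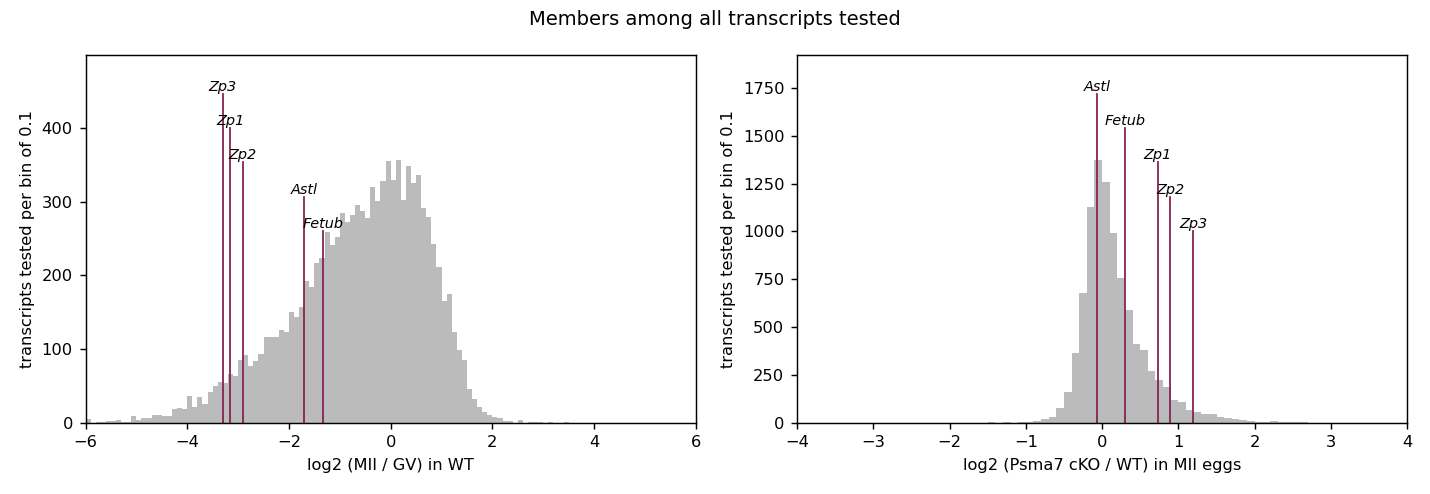
Histograms of the log2 change of all transcripts tested (left, MII against GV in WT; right, Psma7 cKO against WT in eggs), with the number of transcripts per bin of 0.1 on the vertical axis and vertical lines at the 5 members. Line heights only separate the names. On the left the zona transcripts stand at -3.31 to -2.91 in the lower tail and Astl and Fetub nearer the centre, and on the right Zp3 stands at 1.20 and Astl at -0.062.

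Whether the fall itself differed between genotypes was tested as an interaction over all 16 libraries. The fall of Zp3 was smaller in cKO, by 1.14 on the log2 scale (SE 0.22, 95% CI 0.68 to 1.59, adjusted p = 0.0235 in limma), where 1.07% of 10615 transcripts tested were called in this direction. The estimates for Zp2 (0.89, 0.32 to 1.46, adjusted p = 0.10 in limma) and Zp1 (0.76, 0.27 to 1.3, adjusted p = 0.101) had the same sign and did not pass. Those for Fetub (0.15, -0.30 to 0.59) and Astl (-0.23, -0.75 to 0.28) had intervals on both sides of 0. The Zp3 call was lost without cKO GV replicate 3 (adjusted p = 0.0513 in limma) and without the filter on low values (0.0976). The number of transcripts called moved from 134 to between 41 and 651 with 1 library left out. The paper reports that some ovulated cKO oocytes had stayed at the GV stage or had not finished the first meiotic division. The labels do not say whether the cKO egg pools held such oocytes. A smaller fall in each egg and the make-up of the pools cannot be told apart here.

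The balance between the members moved with these values. Astl relative to Zp2 was 0.181 ± 0.016 in cKO GV oocytes and 0.195 ± 0.046 in cKO eggs, where the libraries read 0.244, 0.205, 0.134 and 0.198. Of the WT eggs only replicate 2 (0.235) lay within that cKO range. Within the coat, Zp1 relative to Zp3 was 0.32 ± 0.020 and 0.300 ± 0.011 in WT and cKO GV oocytes, and 0.359 ± 0.058 and 0.264 ± 0.071 in WT and cKO eggs. The cKO eggs split here, with 0.311 and 0.338 in replicates 1 and 2 and 0.205 and 0.202 in replicates 3 and 4, so Zp3 did not move in step with Zp1 in all cKO libraries. Fetub relative to Astl was 0.097 ± 0.030 in cKO eggs, with 0.064, 0.084, 0.134 and 0.108 by library, and overlapped the WT eggs.

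**Figure D5:**
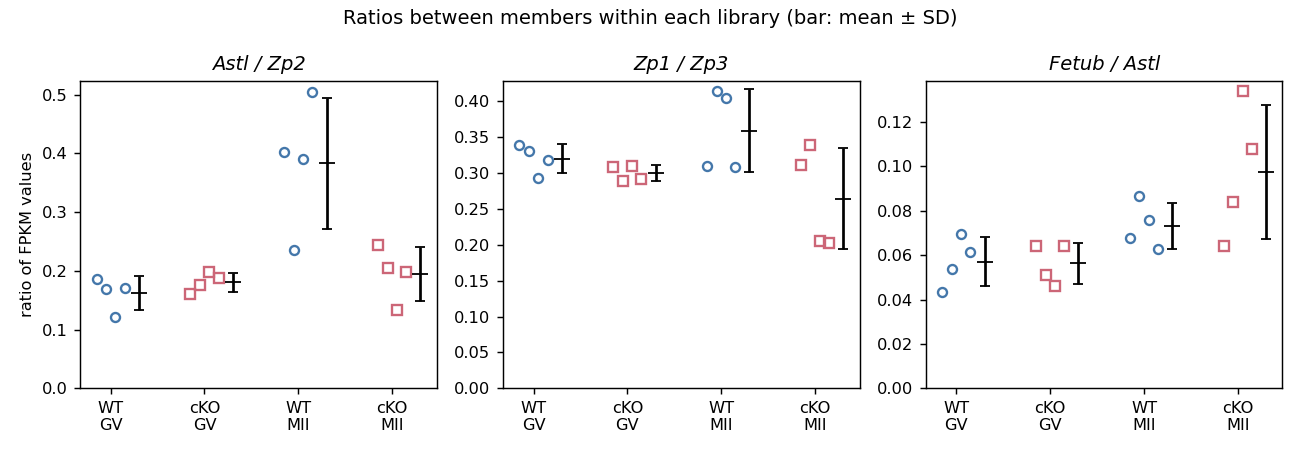
Ratio of FPKM values within each library (vertical axis, linear from 0) for Astl to Zp2, Zp1 to Zp3 and Fetub to Astl, by group. Circles are WT and squares Psma7 cKO libraries, and the bar is the mean ± SD of 4. The Astl to Zp2 ratio is 0.383 in WT eggs and 0.195 in cKO eggs, and 0.162 and 0.181 in the GV groups.

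Likeness of pattern was measured over the 16 libraries as the root mean square difference between log2 profiles, each centred on its own mean, against 4541 entries with a mean of at least 10 FPKM. Zp1 and Zp2 were each among the closest to the other (rank 2 for Zp1 and rank 3 for Zp2, difference 0.20, Pearson r = 0.99). Nlrp2 was nearest to Zp1 (0.20) and Htra1 nearest to Zp2 (0.18), with Napa the second for Zp2. Zp3 was nearest to Asb8 (0.16), Tmem120b (0.16) and Fbxw17 (0.19), and Zp1 came at rank 45 and Zp2 at rank 103 on its list. Asb8, Tmem120b and Fbxw17 also had higher mean FPKM in cKO than in WT eggs (26.7 against 14.1, 6.73 against 3.21 and 3.52 against 1.88). They were picked by profile, so this is a description, but the egg difference was not particular to Zp3. Astl was nearest to Mtmr14 (0.13), Traip (0.13) and Smarcal1 (0.16), and the other members ranked from 362 (Fetub) to 1599 (Zp3). Fetub was nearest to Htr5a (0.16), Foxr1 (0.17) and Sdhaf2 (0.17). All such profiles share the large step between stages, which sets most of r.

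Among 9 factors listed for transcription of the zona genes and of the oocyte programme, 8 were tested. From GV oocyte to egg 7 of the 8 fell in WT and 6 in cKO, where 52.4% and 51% of all transcripts were called lower, and none rose. The median change was -0.96 in WT and -1.15 in cKO against -0.44 and -0.42 over all transcripts. Figla, whose product binds the E-boxes of zona promoters, was 18.5 ± 4.08 and 17.0 ± 2.72 FPKM in WT and cKO GV oocytes. In eggs it measured 1.82, 2.07, 1.14 and 1.36 FPKM in WT and 4.03, 2.68, 7.28 and 5.85 FPKM in cKO. The groups did not overlap, and 13.6% of all transcripts tested were higher in cKO eggs without overlap. The log2 difference of Figla was 1.57 (SE 0.32, adjusted p = 0.0311 in limma), with an interaction of 1.68 (SE 0.38, adjusted p = 0.0425). Lhx8, a homeobox factor of the early oocyte programme, was 17.4 ± 1.52 FPKM in WT and 33.5 ± 8.54 FPKM in cKO eggs, a log2 difference of 0.92 (SE 0.17, adjusted p = 0.0255 in limma) after equal GV levels within the spread (119 ± 15 and 124 ± 5.27 FPKM). With 1 egg library left out the Figla call between eggs held in 2 of 8 limma fits (adjusted p 0.00873 to 0.0827) and the Lhx8 call in 4 of 8 (0.0101 to 0.0814), and the Figla interaction held in 4 of 16 (0.00365 to 0.0879). Under the other settings the Figla egg call held in 6 of 8, its interaction in 5 of 8 and the Lhx8 egg call in 7 of 9. Nobox, a homeobox factor needed for follicle growth, was 44.8 ± 5.17 and 54.4 ± 9.06 FPKM in WT and cKO eggs, and Tbpl2, an oocyte form of the TATA-binding protein, 15.3 ± 0.87 and 16.6 ± 1.82 FPKM. Neither was called between genotypes. Figla and Lhx8 were the 2 of 8 factors called higher in cKO eggs, where 6.53% of all transcripts were, and none of the 8 was called in GV oocytes, where 0.118% were.

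The cortical granule list, which holds cargo and release machinery and did not include Astl, had 14 tested genes of 21. From GV oocyte to egg 5 rose and 7 fell in WT, and 4 rose and 6 fell in cKO, so the share that fell was near the 52.4% and 51% of all transcripts called lower. Plat, a tissue plasminogen activator stored in the oocyte, was the most abundant, at 1019.5 ± 166 FPKM in WT GV oocytes and 699 ± 79.5 FPKM in WT eggs. Of the 14 tested genes 1 was called between genotypes, near the 6.53% of all transcripts called higher in cKO eggs. It was Calr, the chaperone calreticulin that is also found in cortical granules. Calr was higher in cKO eggs (51.6 ± 8.64 against 35.9 ± 3.08 FPKM, log2 difference 0.51, adjusted p = 0.0399 in limma). This call held in 2 of 8 fits with 1 egg library left out and in 5 of 9 other settings (adjusted p 0.0181 to 0.124 in limma). Rab11a, a vesicle transport GTPase, was 247 ± 15 and 277 ± 9.18 FPKM in WT and cKO eggs and Nsf, which recycles the fusion machinery, 62.5 ± 5.02 and 54.4 ± 4.69 FPKM, neither called. Of the astacin family relatives of ovastacin, 2 of 5 listed were tested. Mep1b, the beta subunit of the protease meprin, was at 6.45 ± 1.28 FPKM in WT GV oocytes and 0.66 ± 0.079 FPKM in WT eggs, and Tll1, a tolloid protease, at 6.32 ± 0.61 and 9.67 ± 0.60 FPKM. In WT Mep1b fell (log2 change -2.67, adjusted p = 5.38e-08 in limma) and Tll1 rose (0.62, adjusted p = 0.000353), and neither was called between genotypes at either stage. Astl was more abundant in every group than the 4 listed relatives that had an entry.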

How the data were processed

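RNA from pools of oocytes was primed with oligo-dT and amplified by the Smart-seq2 protocol, after ERCC spike-in RNA had been put into the lysis buffer. The authors deposited FPKM values per transcript entry, made per the labels with TopHat2 2.1.1 and Cufflinks 2.2.1 on mm10 (tool roles are not given there, and the gene annotation is not given in the sources used here). The table held 0 ERCC entries, so levels are shares of a library, and scaling to the spike-in was not used here. Column names were matched to the labels.

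The 5 members and all gene lists were chosen with earlier results of these data known. Members, Psma7, up to 4 genes per list by mean FPKM and any list gene called between genotypes were named. Values under 1 FPKM were set to 1. Entries whose mean in the compared libraries reached 1 FPKM were tested on the log2 scale with limma 3.58.1 in R 4.3.3 (empirical Bayes with an intensity trend), and p-values were adjusted over all of them by Benjamini-Hochberg. Log2 changes of low genes are understated by the floor. Each comparison used its own 8 libraries, and the interaction all 16. On simulated data of the egg comparison the test recovered 87 of 98 changes of 1 log2 unit (88.8%), with 10 false calls among 9489 genes. For the interaction it recovered 86 of 118 (72.9%), with 9 false calls among 10615 genes. The changed genes were drawn from those of higher level, and noise was independent between genes. Deviations that many genes of a library share were therefore not simulated. Depth was estimated from the spacing of low FPKM values of genes with 1 annotated transcript, and counting intervals were not computed, since FPKM gives no exact counts. Same-numbered libraries deviated together in 6 of 24 pairs (correlation over 0.1, range -0.50 to 0.29), so the numbers were not treated as pairing. Positions, transcripts and promoter windows came from GENCODE M21 and RefSeq, both on GRCm38, the assembly of mm10. Protein sequences were not used here. For each member the 3 transcripts with the most similar profile were to be named, and 1 of them is not reported here. Alternatives were floor, filter, scaling, trend, block, pooled fit, summed names and leaving out each library. Python 3.11.15, numpy 2.4.6, pandas 2.3.3 and matplotlib 3.10.9 were used.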

Additional observations from a re-analysis of the deposited data

Results flagged for a closer look

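The change of Zp3 from GV oocyte to MII egg differed between the genotypes, which was tested as an interaction. The fall was smaller in cKO by 1.14 on the log2 scale (SE 0.22, adjusted p = 0.0235 in limma, 16 libraries). All 4 cKO egg libraries lay above all 4 WT egg libraries, which was so for 13.6% of the transcripts tested between eggs. No library stood apart from the other 3 of its group for any of the 5 transcripts, over 20 groups of 4, by the gap to its neighbour divided by the group's range (highest 0.797, under the Dixon limit for 4 values).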

How the results depend on the processing

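Of 460 refitted member results, 438 kept their direction and their side of the threshold, 7 changed sign, 8 newly passed and 7 no longer passed, and the causes were not tested. No change of sign touched a called value. Zp2 between GV groups was -0.055 with rescaled libraries and from -0.021 to 0.032 with 1 library left out, and Astl between eggs from -0.23 to 0.080. Zp3 between eggs kept its 1.20 without the filter (adjusted p = 0.0750 in limma, where most residual variances were 0) and with the replicate block (0.0502), and ran from 1.03 to 1.31 with 1 library left out. Its interaction was 1.14 without the filter and 0.97 to 1.3 with 1 library left out, called in 15 of 16 such fits. Between eggs, Zp1 (0.73) and Zp2 (0.89) passed with a mean of at least 5 FPKM (adjusted p = 0.0476 and 0.0455 in limma) and with all 16 libraries in one fit (0.00760 and 0.00571), and Zp2 also with the replicate block (0.0468). With 1 library left out Zp2 between eggs ran from 0.69 to 1.09 and passed without cKO replicate 4 (0.0489). The interactions of Zp1 (0.59 to 0.93) and Zp2 (0.69 to 1.08) passed without WT MII replicate 2 (0.0450 and 0.0404). The block changed no other member call, but it ended the egg calls of Figla (0.0763), Lhx8 (0.0531), Calr (0.0636) and Ooep (0.0797) and the Figla interaction (0.0686). The number of transcripts called between GV groups was 3 without the filter, 6 with a mean of at least 5 FPKM, with rescaling or with the block, 22 without a trend, 157 with all libraries in one fit, and 5 to 19 with 1 library left out. Between eggs it was 17 without the filter, 501 without a trend, 108 with the block, 1582 in one fit and 3 to 1160 with 1 library left out. From GV to MII it was 5112 in WT and 4962 in cKO with a mean of at least 5 FPKM, which tests fewer genes. For the interaction it was 83 with 1 FPKM added, 29 without the filter, 208 with a mean of at least 5 FPKM, 60 with the block and 41 to 651 with 1 library left out. Fetub rests on the fewest fragments. From the estimated depth, counting alone would give an error of up to 8.39% of its value if every fragment were independent. The spread between libraries was wider, with an SD of 18.1% of the mean in WT eggs.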

Other observations

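Of 11 listed genes for coat assembly and secreted oocyte proteins 9 were tested. In WT 3 rose and 4 fell, and in cKO 3 rose and 3 fell, where 52.4% and 51% of all transcripts were called lower. Oosp1, which encodes a secreted oocyte protein, rose from 1560.3 ± 348 to 5359.7 ± 648 FPKM in WT (log2 change 1.80, adjusted p = 1.08e-06 in limma), and its relative Oosp3 from 632 ± 137 to 1929 ± 215 FPKM (1.63, adjusted p = 1.44e-06). Their relative Oosp2 fell in WT (287 ± 77.5 to 169 ± 18.8 FPKM, -0.74, adjusted p = 0.00233). C1galt1c1, a chaperone of O-glycosylation, had 43.4 ± 7.56 and 46.4 ± 6.22 FPKM. Between genotypes 9 were tested in GV oocytes and 8 in eggs, where Mgat1 fell under the filter on low values. None of those tested was called, where 0.118% of all transcripts were called in GV oocytes and 6.53% were called higher in cKO eggs. Thus Zp3 ranked above Oosp1 in GV oocytes and below it in eggs.

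Of 13 listed genes with a zona pellucida domain beyond the 3 members, 5 were tested, of which 1 rose and 3 fell in WT and 4 fell in cKO, against the same 52.4% and 51% of all transcripts called lower. The pseudogene Zp4-ps measured 9.57 ± 1.72 FPKM in WT GV oocytes, 1.81 ± 0.53 FPKM in WT eggs and 3.09 ± 0.47 FPKM in cKO eggs. Its log2 difference of 0.80 between eggs missed the threshold (adjusted p = 0.0525 in limma). The egg genotypes did not overlap, by a narrow gap (up to 2.55 FPKM in WT, from 2.64 FPKM in cKO). Of all transcripts tested between eggs 13.6% were higher without overlap. Umodl1 was 194 ± 22.6 and 79.6 ± 12.8 FPKM in WT GV oocytes and eggs, Tgfbr3, a TGF-beta co-receptor, 16.6 ± 4.16 and 14.1 ± 1.28 FPKM, and Zpld1 1.73 ± 0.30 and 2.43 ± 0.31 FPKM. Of 8 listed fetuin and cystatin relatives of Fetub 2 were tested, and both fell in each genotype, as did 52.4% of all transcripts in WT and 51% in cKO. Cst3, which encodes cystatin C, went from 25.5 ± 7.63 to 3.55 ± 2.00 FPKM in WT and from 25.9 ± 2.72 to 7.46 ± 3.27 FPKM in cKO, and Cstb, which encodes cystatin B, from 5.72 ± 1.18 to 0.43 ± 0.36 FPKM in WT. Among the oocyte markers 1 of 12 was called between genotypes, near the 6.53% of all transcripts called higher in cKO eggs. It was Ooep, a subunit of the subcortical maternal complex, higher in cKO eggs (2063 ± 336 against 1420 ± 213 FPKM, log2 difference 0.53, adjusted p = 0.0499 in limma). The Ooep call held in 1 of 8 fits with 1 egg library left out and in 3 of 9 other settings. The markers H1foo, Gdf9 and Bmp15 were at 3459 ± 101, 1666 ± 147 and 1440.3 ± 67.0 FPKM in WT eggs. The 3 granulosa and cumulus markers tested gave no call between genotypes. The liver markers all fell under the filter on low values and were not tested.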
